A study of Sus scrofa with 6 samples.

Results

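The genes described here encode the subunits and helpers of the proteasome and the ubiquitin-conjugating (E2) enzymes, followed in porcine satellite cells (PSCs) at 24 h and 36 h of differentiation. Members were all rows of the deposited expression table whose Ensembl identifier is paired with a symbol that starts with PSM or UBE2. This rule took 47 of the 28266 rows, 29 with a PSM symbol and 18 with a UBE2 symbol. PSMC3IP, a partner of recombination enzymes in meiosis, is not a proteasome gene and was kept apart, which left 28 proteasome genes. The table that pairs pig identifiers with symbols holds 76 symbols of these families. The remaining 29, among them PSMB10, UBE2B, UBE2D1, UBE2D3, UBE2G1, UBE2K, UBE2M and UBE2S, have no row in the expression table and were not analysed here. Their Ensembl numbers start at 31392, above the highest of the expression table, 31070, so a missing row says nothing of their level. PSMB5, PSMB6 and UBE2N, whose symbols are paired with no row, were not analysed under these names.

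PSCs are the stem cells of muscle, which leave the cell cycle and fuse into myotubes when differentiation is induced. By the study's methods they were primary cells from the limb muscle of 3-day-old male Yorkshire pigs, moved to differentiation medium, and the libraries used here come from cells that had received a negative control siRNA with no target gene. No genotype or further treatment distinguished the groups, and both carried the siRNA, which the sample labels do not name. The 24 h group (NC24h) and the later group (NC36h) held 3 libraries each, numbered 4, 5 and 6. For the later group the series title and the methods give 36 h, the name used here, whereas the sample labels give 48 h. The labels and methods do not state from how many animals or separate cultures the 6 libraries came, so that the p-values below measure only the spread between these libraries.

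The ubiquitin and proteasome system removes proteins that a cell no longer needs. An E1 enzyme activates ubiquitin, an E2 enzyme takes it over, and an E3 ligase passes it to the target, on which chains of ubiquitin are then read by the proteasome. The proteasome consists of a 20S core, a barrel of alpha rings that form the gate and beta rings that carry the cutting sites, and of a 19S cap, whose base unfolds the target with a ring of ATPases and whose lid takes the ubiquitin off. In muscle the system is best known for the breakdown of myofibrillar proteins in atrophy and for the removal of cell cycle regulators and myogenic factors.

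The table gives FPKM, that is, fragments corrected for gene length and for library size, so levels can be compared between genes of a library. Comparisons between libraries also depend on how the libraries are scaled. The factors of median-ratio scaling, an alternative used below, were higher in every 24 h library than in any 36 h library. Each library held between 16250222 and 21723087 fragments, and for a gene of 1 kb a step of 1 fragment was worth between 0.0457 and 0.0610 FPKM. Desmin (DES), a marker of muscle cells, ranged from 1452 to 3367 FPKM over the 6 libraries. The extract protocol in the labels names endometrium. PGR, a marker of that tissue, was listed at 0 in all libraries, and ESR1 of the same marker list ranged from 0.0351 to 0.255 FPKM. EPCAM, a marker of epithelium, did not exceed 0.0370 FPKM. CDH1, another epithelial gene, ranged from 0.107 to 4.36 FPKM and rose. Of the blood and endothelial markers PTPRC and KDR were listed at 0 throughout, CD14 ranged from 1.003 to 3.29 FPKM and PECAM1 from 1.01 to 1.67. Since 23.5% of all rows were at 0 throughout, a marker listed at 0 need not be without transcripts. The fibroblast marker COL1A2 ranged from 428 to 773 FPKM, and of 4 such markers tested 1 rose and 3 fell. Of 9 muscle markers tested, 7 rose and 0 fell at 36 h, and of 8 genes of dividing cells tested 0 rose and 7 fell. These marker counts stand beside 16.5% of all genes called higher and 34.4% called lower by the test described below. In bulk libraries such as these, fewer cells of a type and less RNA per cell cannot be told apart, and the part of these marker genes' cells in the changes below was not tested.

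Of the 47 members, 41 reached a mean of 1 FPKM over the 6 libraries and were tested with limma on log2(FPKM + 1). A member was called when its adjusted p over all 14060 genes tested was under 0.05, and every change below is the 36 h mean minus the 24 h mean on that log2 scale. Among 23 proteasome genes tested 5 rose and 1 fell, and 9 rose and 0 fell with median-ratio scaling of the libraries. Among 17 E2 genes 3 rose and 7 fell, a balance that turned to 5 higher and 3 lower with that scaling. Together 16 of the 41 (39.0%) were called, 8 in each direction, beside 50.9% of all genes, of which 16.5% were called higher and 34.4% lower. The share of E2 genes called was 58.8% and that of proteasome genes 26.1%. The 3 values of the groups did not overlap in 23 of the 41 members, beside 63.6% of all genes. That count comprised 14 of the 17 E2 genes and 9 of the 23 proteasome genes.

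The median change was 0.07 for the proteasome genes and -0.17 for the E2 genes (0.25 and 0.003 with median-ratio scaling), beside -0.16 for all genes. Within a library, where scaling plays no part, the mean log2 level of the proteasome genes exceeded that of the E2 genes by 0.94, 0.83 and 0.50 at 24 h and by 1.19, 1.08 and 1.07 at 36 h, without overlap. The lowest value, 0.50, was that of NC24h replicate 6. The E2 mean includes UBE2C, which changed by -2.49, and how far the difference rests on UBE2C was not tested. Changes of the members were mostly modest, with a median absolute change of 0.24 beside 0.34 for all genes. An absolute change of at least 1 with a call was seen in 1 member, UBE2C, beside 8.36% of all genes. With median-ratio scaling the median of all genes became -0.003, 23.9% of all genes were called higher and 22.2% lower, and the members split into 14 higher and 3 lower, of which 11 were among the 16 above. Directions of change are therefore given relative to the deposited scale, and calls that this scaling ended are named where they occur. In all, 7 members were called in the same direction with every alternative tried, namely PSMB7, PSMD3, UBE2H and UBE2O higher and UBE2C, UBE2J1 and UBE2Z lower.

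**Figure D1:**
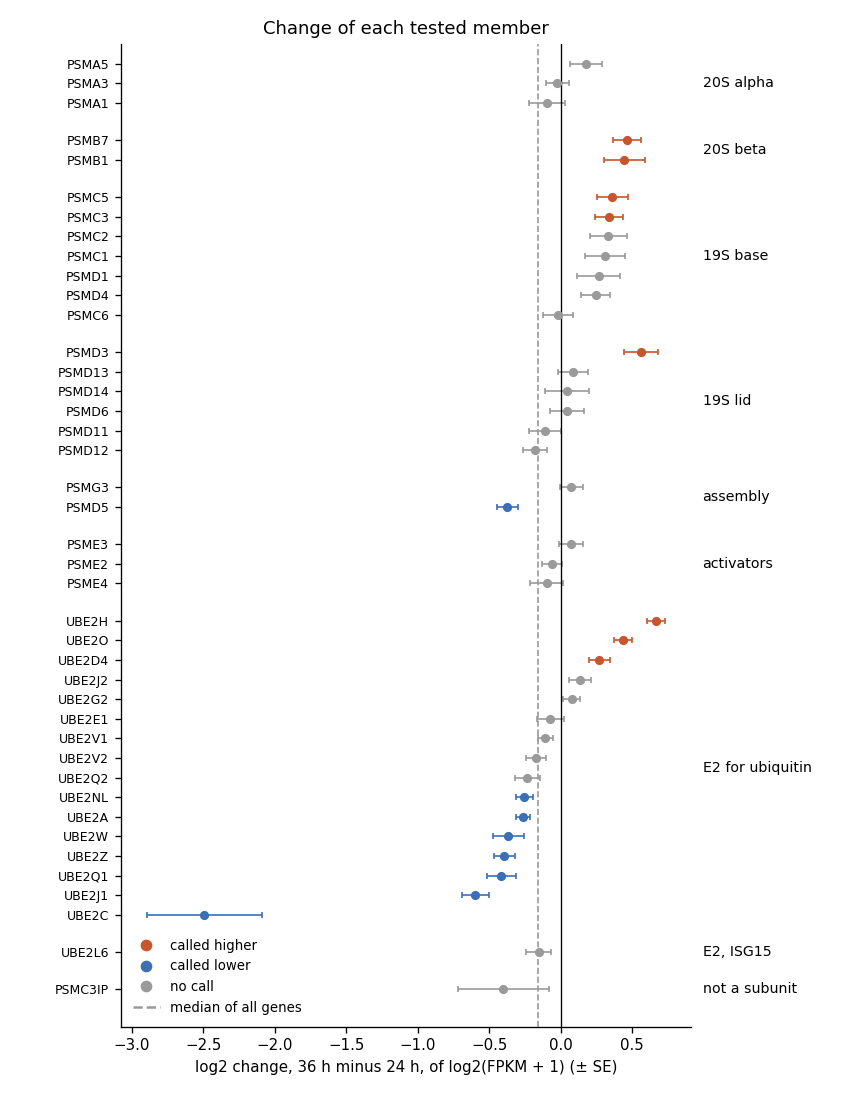
Change of each of the 41 tested members from 24 h to 36 h (horizontal axis, log2 change of log2(FPKM + 1), bars ± SE from limma with 3 libraries per group), ordered by class, with the median of all genes as a dashed line. Both 20S beta genes and 6 of the 7 genes of the 19S base lie right of 0, while 11 of the 16 E2 genes for ubiquitin lie left of it and UBE2C stands far from the rest at -2.49.

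In the 20S core, both constitutive beta genes rose and none of 3 alpha genes was called, beside 50.9% of all genes. PSMB7 (ENSSSCG00000005590) encodes the beta subunit with trypsin-like activity and lies at chr1:265172257-265235389 in the RefSeq annotation of Sscrofa11.1, to which all coordinates below refer. It was measured at 201, 200.3 and 160.4 FPKM at 24 h and 265, 259.7 and 247 at 36 h. The lowest library at 36 h thus lay above the highest at 24 h, and PSMB7 was the most abundant proteasome gene at both times. The change was 0.46 ± 0.10 (SE, limma adjusted p = 0.00891), a ratio of mean FPKM of 1.37. PSMB1, a beta subunit without a cutting site of its own, had 167, 158 and 113 FPKM at 24 h and 197, 198 and 194 at 36 h. Its groups did not overlap either, and the 24 h values were spread over a far wider range than those at 36 h. The change of PSMB1 was 0.45 ± 0.14 (limma adjusted p = 0.0381), a call that was lost in 6 of the 14 alternatives, with adjusted p up to 0.102.

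The alpha genes lay in the same range of abundance. PSMA5, the highest of them, had 144, 135 and 109 FPKM at 24 h and 155, 141 and 140.5 at 36 h, and the highest 24 h value lay above the lowest later ones. Its change was 0.18 ± 0.11 (limma adjusted p = 0.219), and those of PSMA3 and PSMA1 were -0.02 and -0.10 with overlapping groups. Within a library the mean log2 level of the beta genes exceeded that of the alpha genes by 1.03, 1.07 and 0.96 at 24 h and by 1.44, 1.47 and 1.45 at 36 h. This difference does not depend on library scaling, and its 3 values at 36 h all lay above those at 24 h. It rests on 2 beta and 3 alpha genes, fewer than the core has.

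Of the beta subunits that replace the constitutive ones in immune cells and in the thymus, those with a row were at or near 0. PSMB10 has no row, so its level is not known here. PSMB8 and PSMB11 were listed at 0 in all 6 libraries, as were the testis alpha subunit PSMA8 and PSME1. These zeros stand beside 6652 rows of the table (23.5%) that were at 0 throughout, and a gene listed at 0 need not be a gene without transcripts. PSMB9 had 0.0699, 0.144 and 0 FPKM at 24 h and 0.227, 0.0540 and 0 at 36 h, which came from 3 and 5 fragments in all per group. At this depth no difference was detectable. PSMB8 and PSMB9 lie on chromosome 7 between and beside the peptide transporter genes, in the order TAP2, PSMB8, TAP1, PSMB9 with 1540, 1105 and 143 bases between neighbours. TAP1 was also listed at 0, while TAP2 ranged from 0.803 to 1.65 FPKM. Of 9 tested genes of interferon response and antigen presentation 0 rose and 5 fell (1 and 3 with median-ratio scaling), beside 34.4% of all genes called lower. Among them MX1, an antiviral GTPase, changed by -0.99 ± 0.25 (limma adjusted p = 0.0157, and 0.0592 without NC36h replicate 5).

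In the base of the 19S cap, 2 of 7 genes rose and 0 fell, beside 16.5% of all genes called higher and 34.4% lower. The ATPase gene PSMC5 had 94.7, 90.7 and 75.2 FPKM at 24 h and 122, 110.5 and 102 at 36 h, a change of 0.36 ± 0.11 (limma adjusted p = 0.0290). PSMC3, another ATPase of the ring, had 59.4, 58.0 and 47.8 FPKM and then 74.0, 68.8 and 65.8, a change of 0.34 ± 0.10 (limma adjusted p = 0.0261). All values of both genes were higher at 36 h than at 24 h. PSMC5 lost its call when NC24h replicate 5 or NC36h replicate 4 or 5 was left out, and PSMC3 without NC36h replicate 4 or 5, with adjusted p up to 0.0894 and 0.0826. The other ATPase genes PSMC1 and PSMC2 had changes of 0.31 and 0.33, close to those of the called members, at adjusted p of 0.105 and 0.0701 by limma, and PSMC6 of -0.02.

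Of the base genes that are no ATPases, PSMD4 encodes a receptor for ubiquitin chains and was the most abundant gene of the base. It had 152, 135 and 116 FPKM at 24 h and 162, 158 and 154 at 36 h. All 36 h values lay above all 24 h values, by little for the closest pair, and the change of 0.24 ± 0.10 was not called (limma adjusted p = 0.0811). With median-ratio scaling PSMC1, PSMC2 and PSMD4 were called higher too, so that 5 of the 7 base genes rose, beside 23.9% of all genes. PSMD1, the scaffold of the base, had a change of 0.27 ± 0.15 (limma adjusted p = 0.172). The median change over the 7 base genes was 0.31, and without NC24h replicate 6 it was 0.14.

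The lid of the 19S cap had 1 called gene among 6 (16.7%), beside 50.9% of all genes. Its median change was 0.04, or -0.11 without NC24h replicate 6. PSMD3 (ENSSSCG00000017489), a structural subunit of the lid at chr12:22344751-22360550, had 74.5, 76.0 and 56.1 FPKM at 24 h and 98.0, 102 and 104 at 36 h. Every library of the later group lay above every earlier one, and the ratio of the means was 1.47. The change of 0.56 ± 0.12 (limma adjusted p = 0.00866) was the largest rise among the proteasome genes and was called with every alternative. PSMD14, the deubiquitinase that releases ubiquitin from the target, had 107, 93.5 and 68.7 FPKM at 24 h and 94.0, 88.1 and 91.3 at 36 h. The later values fell inside the range of the earlier ones, and the change was 0.05 ± 0.15 (limma adjusted p = 0.823).

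The remaining lid genes were not called. PSMD11, which joins lid and core, had 107, 104 and 81.4 FPKM at 24 h and 93.9, 87.2 and 87.3 at 36 h, a change of -0.11 ± 0.11 (limma adjusted p = 0.425). The spread of its 24 h values exceeded the difference of the means. PSMD13, the most abundant lid gene by its mean over both times, had 105, 102 and 89.0 FPKM and then 119.6, 96.4 and 98.7, again with overlapping groups. PSMD6 had a change of 0.04 and PSMD12 of -0.18, at limma adjusted p of 0.787 and 0.113. Within a library the mean log2 level of the 7 base genes minus that of the 6 lid genes was -0.004, -0.012 and -0.028 at 24 h and 0.17, 0.21 and 0.14 at 36 h, so that this difference did not overlap between the groups.

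Among the assembly factors and activators, which join the core or cap for a time, 1 gene fell and 0 rose. This turned to 0 and 1 with median-ratio scaling. Of all genes 34.4% were called lower and 16.5% higher, or 22.2% and 23.9% with that scaling. PSMD5, a chaperone that holds ATPases of the base before the cap is complete, had 20.6, 20.9 and 20.6 FPKM at 24 h and 16.0, 16.9 and 14.5 at 36 h. The 24 h values were nearly equal and all above the later ones, and the change was -0.37 ± 0.07 (limma adjusted p = 0.00634). With median-ratio scaling the call was lost (adjusted p = 0.0678). PSMG3, a chaperone of the alpha ring, had 26.6, 26.3 and 28.3 FPKM and then 31.4, 26.6 and 27.8, with no call on the deposited scale and a call as higher with median-ratio scaling (limma adjusted p = 0.0306). The activators PSME2, PSME3 and PSME4 had changes of -0.06, 0.07 and -0.10, each with overlapping groups. PSME3, the most abundant of them, had 70.5, 70.0 and 63.1 FPKM at 24 h and 79.2, 68.2 and 67.1 at 36 h. PSME2, the partner of PSME1 in the interferon-induced activator, had 33.1, 34.2 and 35.7 and then 35.4, 31.9 and 31.5. PSME4, an activator found in the nucleus, had 48.8, 45.6 and 36.2 and then 38.6, 39.5 and 42.8, with its lowest value in NC24h replicate 6.

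**Figure D2:**
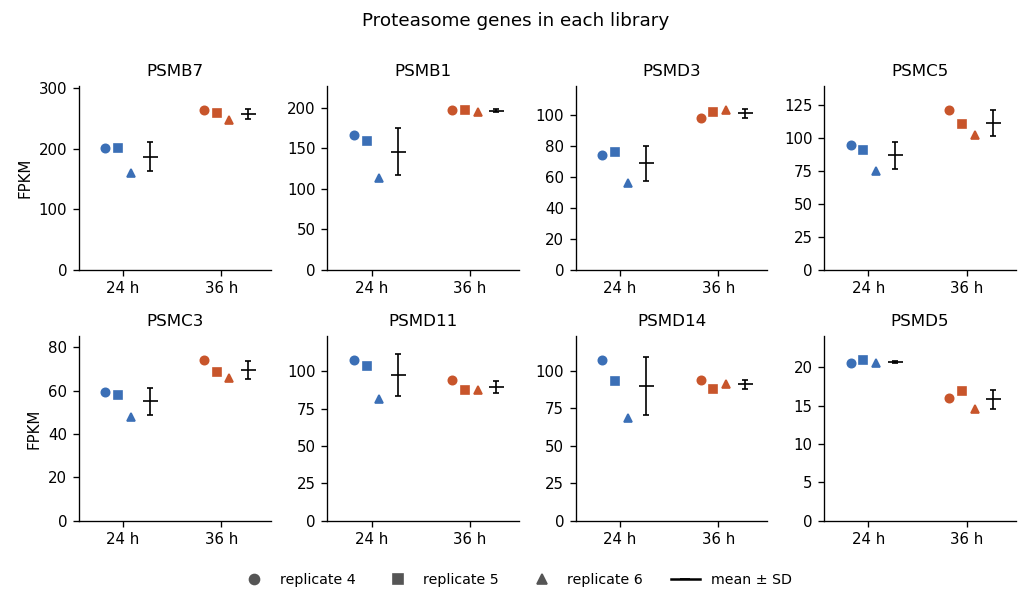
FPKM (vertical axis, from 0) of 8 proteasome genes in each library at 24 h and 36 h, with 1 symbol per replicate number and the mean ± SD of 3 libraries beside the points. PSMB7, PSMB1, PSMD3, PSMC5 and PSMC3 lie higher at 36 h in every library, PSMD5 lies lower, and the triangle of NC24h replicate 6 is the lowest 24 h point in all 8 panels, though in that of PSMD5 the 24 h points nearly coincide.

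NC24h replicate 6 stood apart in the proteasome genes. It was the lowest of the 24 h libraries in 21 of 23 proteasome genes (91.3%), beside 34.0% of all genes, and the lowest of all 6 libraries in 19 of 23 (82.6%), beside 19.9% of all genes. Summed over the 23 genes, FPKM was 2039, 1932 and 1558 at 24 h and 2180, 2079 and 2045 at 36 h. The same library had the highest values of the 24 h group in all 8 tested genes of dividing cells and the lowest mean of the muscle markers. For dividing cells the mean log2 level was 2.60, 3.03 and 3.86 at 24 h and 1.37, 1.28 and 1.61 at 36 h, and for the muscle markers it was 8.27, 8.17 and 7.72 and then 9.12, 9.11 and 9.06. Whether these differences account for the proteasome values of that library was not tested.

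Without NC24h replicate 6, 9 members were called higher and 13 lower of 40 tested, beside 17.6% and 34.6% of all genes, and 15 of the 16 calls above were among them. The proteasome genes then split into 6 higher and 5 lower. PSMC2 joined the genes that rose, while PSMA1, PSMD11, PSMD12 and PSME4 joined PSMD5 among those that fell, with changes from -0.27 to -0.22 for these 4. The rise of both beta genes and of PSMD3 was smaller without that library, at 0.36 for PSMB7, 0.27 for PSMB1 and 0.42 for PSMD3, and each was still called. In the E2 genes that library was the lowest of the 24 h group in 9 of 17 genes (52.9%), also above the share of all genes given above. The summed FPKM of the E2 genes was 836.5, 851.5 and 864.3 at 24 h and 787.2, 806.4 and 788.8 at 36 h. Of the 24 h sums UBE2C made up 14.9, 21.5 and 48.6 FPKM, and without it NC24h replicate 6 would not have the highest.

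**Figure D3:**
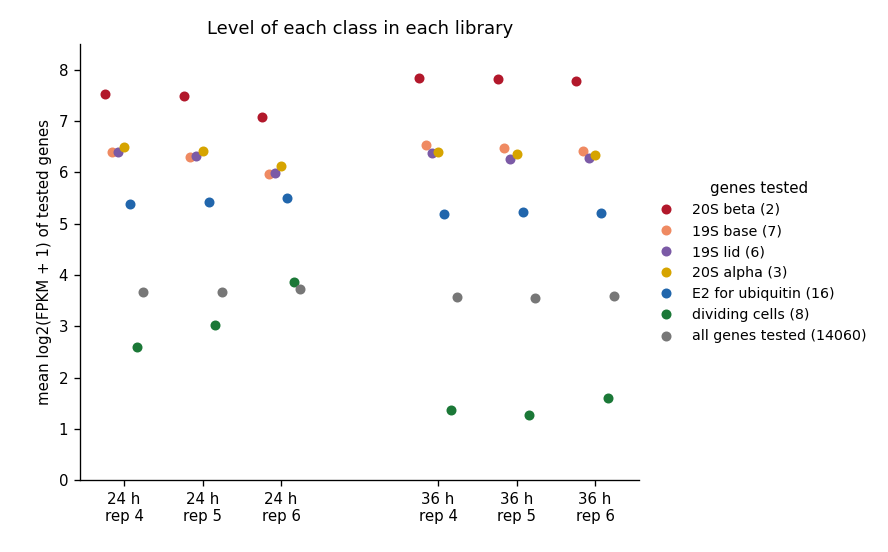
Mean log2(FPKM + 1) over the tested genes of 20S, 19S and E2 classes, of dividing cells and of all genes (vertical axis, number of genes in brackets) in each of the 6 libraries, with points of a library set side by side. The beta genes and the base lie higher at 36 h than at 24 h, the E2 enzymes lie lower on this deposited scale, and NC24h replicate 6 has the lowest points of the 4 core and cap classes shown and the highest point of dividing cells, at 3.86.

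Among the E2 enzymes, UBE2C showed by far the widest difference of all members. UBE2C works with the anaphase-promoting complex (APC/C), the E3 ligase that marks cyclin B for destruction at the end of mitosis. UBE2C (ENSSSCG00000007423, chr17:48018403-48021542) had 14.9, 21.5 and 48.6 FPKM at 24 h and 3.07, 3.13 and 4.90 at 36 h, from 1494 and 235 fragments per group. The groups lay far apart, and within the 24 h group replicate 6 stood well above the others. The change was -2.49 ± 0.40 (limma adjusted p = 0.00335), a mean 7.65 times higher at 24 h, and only 6 of the 14060 genes tested had a larger fall. Without NC24h replicate 6 the change was -2.03 (limma adjusted p = 0.000975). By level UBE2C moved from the 11th place among 17 E2 genes at 24 h to the last at 36 h.

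Genes that act beside UBE2C in mitosis are given for comparison. CCNB1, which encodes cyclin B, had 11.8, 15.2 and 28.5 FPKM at 24 h and 1.93, 1.71 and 2.34 at 36 h. The order of the libraries at 24 h was that of UBE2C, with replicate 6 the highest, and the change was -2.62 ± 0.29 (limma adjusted p = 0.00126). The median change of the 8 tested genes of dividing cells was -1.82. Of the APC/C itself, 9 subunits and coactivators were tested, of which 0 rose and 5 fell (1 and 4 with median-ratio scaling). The share called was 55.6%, beside 50.9% of all genes, and 34.4% of all genes were called lower. The median change of these APC/C genes was -0.29, and ANAPC4 had the largest fall at -0.54 ± 0.09 (limma adjusted p = 0.00380). UBE2T, an E2 of DNA crosslink repair, was listed at 0 in 5 libraries and at 0.0100 FPKM in NC36h replicate 5, and at this depth no difference was detectable.

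**Figure D4:**
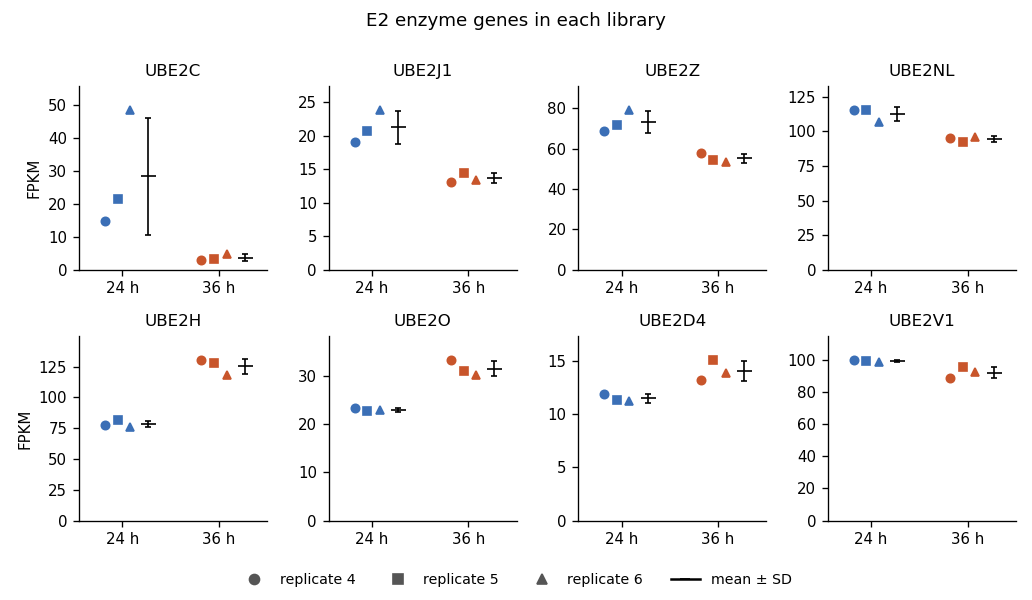
FPKM (vertical axis, from 0) of 8 E2 genes in each library at 24 h and 36 h, with 1 symbol per replicate number and the mean ± SD of 3 libraries beside the points. UBE2C, UBE2J1, UBE2Z and UBE2NL lie lower at 36 h and UBE2H, UBE2O and UBE2D4 higher, with no overlap, and UBE2V1 is shown as an abundant gene that was not called.

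Next to UBE2C, UBE2J1 had the largest fall. UBE2J1 (ENSSSCG00000004317, chr1:57340622-57364263) encodes an E2 anchored in the endoplasmic reticulum that serves the disposal of misfolded proteins from it. It had 19.1, 20.7 and 23.9 FPKM at 24 h and 13.0, 14.5 and 13.4 at 36 h, a ratio of 1.56 in favour of 24 h. The groups did not overlap, and the change of -0.60 ± 0.10 (limma adjusted p = 0.00319) was called with every alternative. Other E2 enzymes of this route were not called. UBE2J2, also anchored in that membrane, had 40.4, 40.7 and 34.9 FPKM and then 42.6, 43.1 and 41.8, and UBE2G2, which is recruited to it, had 39.1, 37.2 and 35.6 and then 39.4, 38.6 and 40.1. Their changes were 0.14 and 0.08 (limma adjusted p = 0.168 and 0.309), and both were called higher with median-ratio scaling.

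UBE2Z, an E2 that takes its ubiquitin from the E1 enzyme UBA6, fell as well. UBE2Z (ENSSSCG00000025638, chr12:25122072-25141144) had 68.7, 71.6 and 79.4 FPKM at 24 h and 57.9, 54.5 and 53.7 at 36 h. All later values were lower, and the change was -0.40 ± 0.07 (limma adjusted p = 0.00523), called with every alternative. UBA6 had 15.1, 12.3 and 14.7 FPKM and then 8.99, 8.62 and 9.04, the largest fall among 7 E1 genes at -0.60 ± 0.09 (limma adjusted p = 0.00281). UBA1, the E1 that charges most E2 enzymes, ranged from 251 to 279.6 FPKM over both times with a change of -0.04 ± 0.06 (limma adjusted p = 0.613).

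The other 4 E2 genes that fell had smaller changes and were named to complete the count after their values were seen. UBE2Q1 had 50.2, 56.0 and 64.6 FPKM at 24 h and 41.8, 39.6 and 45.4 at 36 h, a change of -0.41 ± 0.10 (limma adjusted p = 0.0157). UBE2W, which attaches ubiquitin to the start of proteins, had 20.3, 21.7 and 24.3 FPKM and then 16.1, 19.3 and 15.3, a change of -0.37 ± 0.11 (limma adjusted p = 0.0280). UBE2A, a homologue of yeast Rad6 that ubiquitinates histones and the replication clamp, had 40.3, 40.8 and 40.4 FPKM and then 33.4, 33.7 and 33.6, a change of -0.26 ± 0.05 (limma adjusted p = 0.00643). In none of these genes did the groups overlap, and of the 3 UBE2A had the narrowest spread within groups. With median-ratio scaling UBE2Q1, UBE2W, UBE2A and UBE2NL lost their calls, and UBE2W also lost it in 5 other alternatives, UBE2Q1 without NC36h replicate 5, and UBE2NL without NC24h replicate 5 or NC36h replicate 5.

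UBE2NL is the symbol of a near-identical copy of UBE2N, the E2 that builds ubiquitin chains for signalling rather than for the proteasome. No row carries the symbol UBE2N and UBE2NL had no RefSeq position, so whether this row is the copy or UBE2N itself cannot be told here. Since fragments of both may also be assigned to either, the level of the row is uncertain. It had 115, 116 and 107 FPKM at 24 h, the highest mean of all E2 genes at that time, and 95.2, 92.1 and 95.9 at 36 h. The change was -0.25 ± 0.06 (limma adjusted p = 0.0119). UBE2V1 and UBE2V2 lack the active cysteine of E2 enzymes and act as partners of UBE2N. UBE2V1 had 99.6, 99.5 and 98.6 FPKM and then 88.7, 95.3 and 92.4, and UBE2V2 had 79.7, 75.9 and 69.7 and then 68.1, 68.1 and 63.2. In both all later values lay below all earlier ones, and neither was called, with changes of -0.11 ± 0.05 and -0.17 ± 0.07 (limma adjusted p = 0.142 and 0.0819).

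Of the 3 E2 genes that rose, UBE2H changed most. UBE2H (ENSSSCG00000016564, chr18:18819612-18932909) encodes the E2 that serves the CTLH ligase complex. It had 77.8, 81.3 and 76.0 FPKM at 24 h and 130.0, 128 and 118 at 36 h. The groups were far apart relative to their spread, with a ratio of means of 1.60, and UBE2H moved from the 4th most abundant E2 gene to the first. The change of 0.67 ± 0.06 (limma adjusted p = 0.000906) had the smallest adjusted p of all members and lay between 0.64 and 0.71 when any library was left out.

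UBE2O, a large enzyme that acts as E2 and E3 together and clears unassembled proteins in maturing red cells, rose next. UBE2O (ENSSSCG00000029901, chr12:5055091-5114127) had 23.3, 22.6 and 22.9 FPKM at 24 h and 33.2, 30.9 and 30.2 at 36 h, a ratio of means of 1.37. The groups did not overlap, and the change was 0.44 ± 0.06 (limma adjusted p = 0.00223), between 0.40 and 0.46 without any of the libraries. UBE2D4, a member of the UBE2D group that works with many ligases, had 11.9, 11.3 and 11.3 FPKM and then 13.3, 15.1 and 13.9. Its change was 0.27 ± 0.07 (limma adjusted p = 0.0211), and the call was lost without NC24h replicate 5 or NC36h replicate 5, with adjusted p up to 0.0882.

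The rest of the E2 genes were not called. UBE2E1 ranged from 78.4 to 99.0 FPKM and UBE2Q2 from 17.0 to 23.3 over both times, with changes of -0.07 and -0.23. UBE2L6, the E2 of the ubiquitin-like protein ISG15, had 14.2, 17.3 and 16.2 FPKM at 24 h and 14.2, 13.6 and 14.7 at 36 h, a change of -0.15 ± 0.09 (limma adjusted p = 0.182). PSMC3IP, the meiotic gene with a proteasome-like symbol, had 0.814, 1.31 and 2.88 FPKM and then 1.18, 0.419 and 1.27, with overlapping groups.

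Genes of the same route that carry other symbols were counted for comparison, beside 16.5% of all genes called higher and 34.4% lower. UBB, which encodes ubiquitin, had 584, 698 and 579.6 FPKM at 24 h and 576, 489 and 532 at 36 h and was not called (limma adjusted p = 0.116). Among 7 E1 genes 0 rose and 3 fell. Of these ATG7, named after its values were seen, lost its call in 9 alternatives, median-ratio scaling among them (limma adjusted p = 0.0458, up to 0.478). Among 6 genes with an E2 fold but other symbols 1 rose and 1 fell (2 and 0 with median-ratio scaling), namely ATG10, an enzyme of autophagy, with a change of 0.28, and AKTIP with -0.31 (limma adjusted p = 0.0385 and 0.00663). The call of ATG10 was lost in 8 alternatives, with adjusted p up to 0.1404, and that of AKTIP with median-ratio scaling. Of 15 partners of the proteasome 1 rose and 5 fell, whereas with median-ratio scaling 4 rose and 2 fell. The largest fall was that of ZFAND5, a stimulator of the proteasome known from muscle atrophy, with 19.7, 18.4 and 16.5 FPKM and then 13.8, 12.4 and 11.8, a change of -0.49 ± 0.09 (limma adjusted p = 0.00541). The rise was that of the shuttle factor RAD23B, by 0.17 ± 0.06 (limma adjusted p = 0.0379), a call lost in 7 of the 14 alternatives with adjusted p up to 0.122. NC24h replicate 6 was the lowest 24 h library in 13 of these 15 partners too.

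The regulators of proteasome genes moved in opposite directions. NFE2L1, a transcription factor that raises the expression of proteasome genes when the proteasome is overloaded, had 154, 145 and 128 FPKM at 24 h and 209, 187 and 173 at 36 h. All later values were higher, and the change was 0.41 ± 0.10 (limma adjusted p = 0.0137). NGLY1, the glycanase that NFE2L1 needs for its activity, had 27.7, 25.1 and 22.1 FPKM and then 13.0, 13.3 and 13.5, which was nearly level within the later group. Its change was -0.86 ± 0.09 (limma adjusted p = 0.00110). NFE2L2, the related factor of the oxidative stress response, had a change of -0.10 ± 0.06 (limma adjusted p = 0.229) with overlapping groups.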

How the data were processed

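The 6 RNA-seq libraries of PSCs were 3 of the NC24h and 3 of the NC36h group. The authors deposited FPKM values per gene for each library and pooled none. Their methods give mapping of paired-end reads by HISAT2, assembly by StringTie and counting by HTSeq, and the submitters' processing notes name TopHat2, Cufflinks, HTSeq and Sscrofa11.1. Strandedness and the handling of shared reads are not given in the sources used here. Within a gene the FPKM values of a library step by whole fragments, and from these steps fragments were recovered for all 19543 genes above 0 in at least 3 libraries (99.1% with a length within 0.05 of a whole number).

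The 14060 genes that averaged 1 FPKM or more were fitted as log2(FPKM + 1) with limma 3.58.1 in R 4.3.3 (eBayes with trend, two-sided, Benjamini-Hochberg, threshold 0.05). For genes of low FPKM the added 1 makes a fold change look smaller than it is. Some genes that fall under the naming rule are not reported here. Replicate numbers were not taken to pair the libraries, since the correlations of deviations between equal numbers were 0.15, -0.02 and 0.18.

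Members and lists were chosen with earlier results of these data known. Per-library values were given for the highest member, largest rise and largest fall of each class, for called members with an absolute log2 change of at least 0.5, and for a fixed list of members. The largest rise and fall of each pathway list were named, some with their change only. Other called members complete the counts and were named after their values were seen. From the marker lists the rule took CD14 (log2 change -0.71), CDH1 (1.79), COL3A1 (0.87), DCN (-1.48) and ACTA1 (2.37). RefSeq coordinates (Sscrofa11.1) were matched by symbol for 45 of the 47 members, because the RefSeq table held no Ensembl identifiers. The alternatives were median-ratio scaling and quantile normalization of the libraries, a pseudocount of 0.1, no filter or a minimum of 5 FPKM, eBayes without trend, a replicate block, limma voom on the recovered fragments, and leaving out each library.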

Additional observations from a re-analysis of the deposited data

How the results depend on the processing

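With median-ratio scaling the members split into 14 higher and 3 lower, and the median change was 0.48 for the 19S base, 0.11 for the activators and -0.031 for the E2 enzymes for ubiquitin. When each library was left out in turn, between 4 and 11 members were higher and between 6 and 13 lower (13 without NC24h replicate 6), and the median of the base lay between 0.14 and 0.40. The lowest counts of higher members were 5 without NC24h replicate 5, 5 without NC36h replicate 4 and 4 without NC36h replicate 5. The number of all genes called lay between 4881 and 7268. With the replicate block 9 members were higher and 9 lower, of 7034 genes called in all, and the 16 calls were all among them. With limma voom on the recovered fragments the 16 called members were the same. Over the alternatives, 527 values of single members kept their side of the threshold, 26 lost a call and 19 gained one, and no called member changed sign. The ratio of immune to constitutive catalytic subunits was not run, because its constitutive partners PSMB5 and PSMB6 and the immune subunit PSMB10 were not analysed here. Genes listed at 0, such as PSMB8, limit what can be said of their absence, and 3 libraries per group limit the precision throughout.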
